A study of Mus musculus with 8 samples.

Results

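The fibroblast growth factor (FGF) ligands and receptors tied to hair cycling were followed in mouse back skin tissue from a shaved control through 50 days after hair plucking. The set held 7 ligands, Fgf1, Fgf2, Fgf5, Fgf7, Fgf10, Fgf18 and Fgf22, and 3 receptors, Fgfr1, Fgfr2 and Fgfr3. They were taken by exact match of the gene name carried on the array, which gave 10 of 34790 gene names and 19 of 55668 probes that are not controls. The rule itself reads no measured value, but the genes were put on the list with earlier results of these data known.

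FGFs are secreted proteins that bind heparan sulfate and signal through receptor tyrosine kinases, which activate the Ras and MAP kinase cascade and induce their own feedback inhibitors and ETS transcription factors. Alternative splicing of the receptor genes sets which ligands they bind: the epithelial form of Fgfr2 answers to ligands made by the mesenchyme, such as FGF7 and FGF10. In the hair follicle the family acts at both ends of the cycle. FGF7 and FGF10 from the dermal papilla stimulate the follicle's epithelium as growth begins, FGF18 is made by resting stem cells and holds the follicle in rest, and FGF5 ends the growth phase, so that mice without it carry long hair.

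The submitters asked which genes take part in hair regrowth induced by plucking. Female C57 BL/6 mice had their dorsal follicles synchronised by a first wax stripping and were waxed again, and the tissue outside the follicles, adipose and dermal by the design text and adipose cells by the sample labels, was taken. The groups were a control taken straight after shaving, plucked samples from the first days (12 h, 1 d and 2 d), from the following week (4 d, 6 d and 10 d), and a late sample from 50 d. Each group was 1 sample on 1 array, so 8 arrays carried the whole series and no time had a replicate. At treatment all follicles were in telogen, the resting phase, and by the protocol the mice were 7 to 8 weeks old. The sample labels instead give 10 weeks for the control and for 12 h to 4 days, and 11 weeks for 6 and 10 days. They give 17 weeks for 50 days. The labels do not say whether a sample came from 1 mouse or from a pool. RNA was extracted after a lysis meant to favour adipose cells, and was labelled with the dye Cy3.

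A level here is the log2 processed intensity of a probe minus the 75th percentile of the same array, so 0 marks a probe as bright as that percentile, and levels of different probes cannot be set against each other. A difference is the level on a plucked array minus the level on the shaved array. With 1 array per time it has no error and no p-value. A gene was counted as higher or lower when the difference was at least 2-fold, or 1 on the log2 scale, and the scanner software marked the brighter array's spot as well above background. Where the dimmer array was not well above background, only a lower bound on the fold is given. It was set from the lowest level well above background on that array, or the gene's own level if higher. That level is no strict detection limit, and the bound depends on the background correction.

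All 8 arrays lay on 1 slide, with 72.9 to 81.2% of spots well above background and no saturated spot. The median standard deviation (SD) over the 10 spots of repeated probes was 0.056 to 0.091 on the log2 scale, which measures printing and reading only. Different probes of a gene gave differences from the shaved array with a median SD of 0.153 to 0.179. All 10 adipocyte markers were well above background on every array, with a summed level between 9.35 and 10.52. All 10 dermal fibroblast markers and all 7 skeletal muscle markers were too, and so were all 9 markers of interfollicular keratinocytes and all 10 of the hair shaft and inner root sheath. The material was therefore tissue of many cell types, and in such bulk samples fewer cells of a type and less RNA per cell cannot be told apart. The row of the slide divided the times: the 12 h, 1 d, 2 d and 50 d arrays lay in row 1 and the shaved, 4 d, 6 d and 10 d arrays in row 2.

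Promoters are shown for the 3 members that stood at least 2-fold above the shaved array at 4 and 6 days, Fgf5, Fgf22 and Fgfr3, because they stood high together. From the RefSeq table of build GRCm38.p6, 9 promoters of 8 of the 10 members were used, and Fgf1 and Fgfr1 are not among them. Each run is the 250 bases before the annotated start, 5′ to 3′ on the gene's strand, with GC boxes, the letters GGGCGG or their reverse complement, in capitals. The Fgf5 promoter lies at chr5:98253934-98254183 on the plus strand, that of Fgf22 at chr10:79754859-79755108 on the plus strand, and the first of the pair for Fgfr3 at chr5:33721474-33721723 on the plus strand.
Fgf5: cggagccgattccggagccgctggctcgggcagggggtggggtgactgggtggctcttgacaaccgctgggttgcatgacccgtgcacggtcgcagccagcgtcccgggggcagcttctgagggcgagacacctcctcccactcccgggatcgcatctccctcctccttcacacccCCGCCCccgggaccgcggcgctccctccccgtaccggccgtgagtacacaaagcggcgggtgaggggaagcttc
Fgf22: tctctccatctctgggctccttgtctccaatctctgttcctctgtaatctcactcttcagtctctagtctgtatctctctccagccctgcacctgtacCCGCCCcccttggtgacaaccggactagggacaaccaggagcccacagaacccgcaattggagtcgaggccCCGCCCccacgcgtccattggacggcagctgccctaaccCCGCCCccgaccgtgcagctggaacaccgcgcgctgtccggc
Fgfr3: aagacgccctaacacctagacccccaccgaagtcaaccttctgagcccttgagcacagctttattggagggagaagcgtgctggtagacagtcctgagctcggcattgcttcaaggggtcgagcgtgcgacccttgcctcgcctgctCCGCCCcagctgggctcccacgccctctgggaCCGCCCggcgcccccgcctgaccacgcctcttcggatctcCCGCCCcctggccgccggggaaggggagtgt
The Fgf5 window held 1 GC box, that of Fgf22 held 3 and that of Fgfr3 held 3. Fgf2, Fgf10 and Fgf18 held 1 each, and Fgf7 and Fgfr2 none. A GC box occurred in 32.7% of all 32851 RefSeq promoter windows of this length. The GC content was 70.8% for Fgf5, 62.4% for Fgf22 and 66.8% for Fgfr3. The windows were also searched on both strands for the TATA box TATAAA, the LEF/TCF letters CTTTGA, the GLI letters GACCACCC and the E-box CACGTG (no one of these contains another). They stood in 12.4%, 13.8%, 0.703% and 6.02% of all windows, and none of the 4 was in any of the 9 member windows.

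Among 60-base probes, 1 for Fgf22 and 1 for Fgfr3 are printed because the reading of these genes rests on comparing probes. The second Fgf22 probe lies at chr10:79219513-79219572, and the second Fgfr3 probe is split over chr5:34077856-34078090, a span of 235 bases, both in the array's build mm9 and on the plus strand.
Fgf22 second probe: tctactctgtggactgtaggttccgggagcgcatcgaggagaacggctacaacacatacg
Fgfr3 second probe: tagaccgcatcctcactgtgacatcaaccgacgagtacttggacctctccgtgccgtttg
The brightest Fgf22 probe lies at chr10:79221282-79221341 and the brightest Fgfr3 probe at chr5:34079649-34079708, 1710 and 1559 bases further along, so the probes of each gene share no base. No mm9 annotation was used here, so exons and untranslated regions of the probes are not named.

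**Figure D1:**
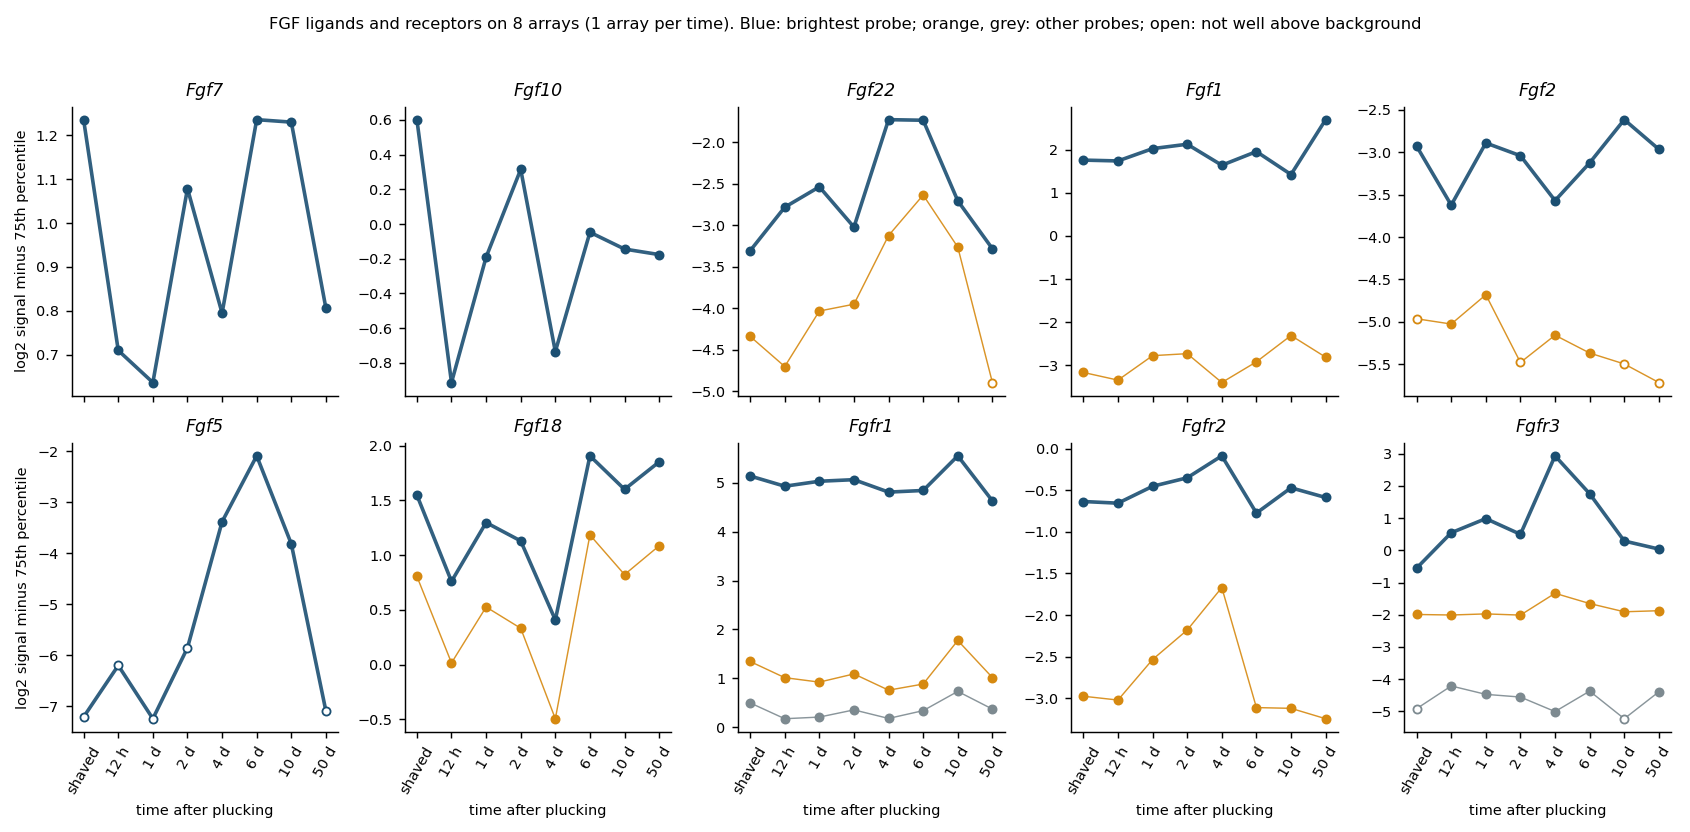
Level of every probe of the 10 genes on the 8 arrays, as log2 processed intensity minus the array's 75th percentile, with time after plucking on the x axis and a y range of its own in each panel. Blue marks the brightest probe, orange and grey the other probes, and open points are not well above background; Fgf5 is filled at 4, 6 and 10 days alone and stood highest at 6 days, at -2.09.

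Against the shaved array, 5 of the 10 genes were at least 2-fold apart at 4 days, more than at any other time. Fgf5, Fgf22 and Fgfr3 were higher and Fgf10 and Fgf18 were lower. The background at 4 days was 5.86% of 29066 tested genes higher and 6.58% lower. At 6 days Fgf5, Fgf22 and Fgfr3 were again higher, 3 of 10 against a background of 4.18%, and no member was lower, against 2.09%. At 10 days Fgf5 alone was higher, 1 of 10 against 3.75%, and none was lower, against 2.29%.

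In the first 2 days few members passed the fold. At 12 h Fgfr3 was higher and Fgf10 lower among the 9 members tested, against backgrounds of 3.86% and 3.33%. Fgfr3 was the member counted as higher at 1 d and at 2 d, 1 of 9 each time, against 2.67% and 2.56%, and none was lower, against 3.21% and 3.57%. At 50 d none of the 9 tested members was counted in either direction, against 2.72% higher and 4.4% lower. Fgf5 was the member not tested at 12 h, 1 d, 2 d and 50 d, because neither array of the pair was well above background. All 7 comparisons share the shaved array, so a value particular to that array enters each of them. The members' median difference at 4 days was -0.22, beside -0.13 over all genes tested, and at 6 days 0.10 beside -0.09.

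**Figure D2:**
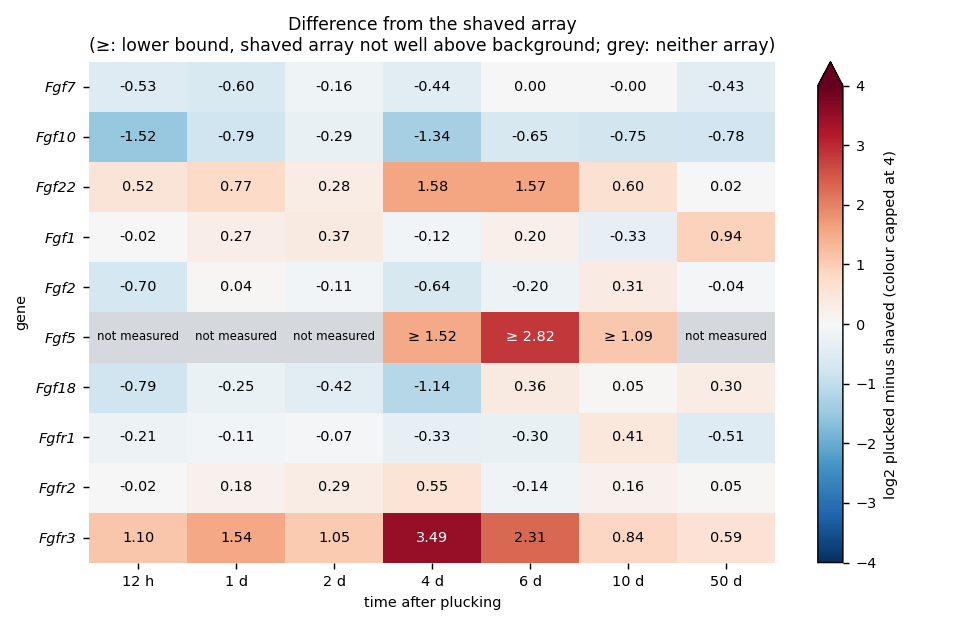
Difference of each gene's brightest probe from the shaved array (log2, plucked minus shaved) for 10 genes in rows and 7 times in columns, with the value printed in each cell. Red is higher and blue lower than the shaved array; Fgfr3 at 4 days is the darkest cell, at 3.49, Fgf5 is shown by its lower bounds of 1.52, 2.82 and 1.09 at 4, 6 and 10 days, and its grey cells mark times when neither array was well above background.

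When each gene's 8 levels were put in order, steps between neighbouring arrays under 0.167, the median SD between probes of a gene over the 7 times, made up 6 of 7 for Fgf7 and Fgfr2. They made up 5 of 7 for Fgf2 and Fgfr1, 4 for Fgf1, 3 for Fgf10 and Fgf22, 2 for Fgf18 and 1 for Fgfr3. This yardstick measures how probes of a gene differ and not how samples of a time would differ, which 1 array per time cannot show.

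Fgf5, the ligand that brings the growth phase to its end, was well above background on 3 of 8 arrays. It was measured by 1 probe on 1 spot. Its level was -7.21 when shaved, then -6.20, -7.24 and -5.85 at 12 h, 1 d and 2 d, -3.38, -2.09 and -3.81 on days 4, 6 and 10, and -7.09 on day 50. The 4, 6 and 10 d arrays stood above all 5 others, and the other 5 values are not well above background and have no order. The level at 6 d was at least 7.04-fold that of the shaved array, where the dimmest probes well above background stood at -4.90. The bound was at least 2.88-fold at 4 d and at least 2.13-fold at 10 d. Normexp background correction adds an offset to every spot and so draws dim values together. With it the difference was 0.93 at 4 d, 1.67 at 6 d and 0.88 at 10 d, which ended the count at 4 and 10 d. These are smaller than the log2 bounds of 1.52, 2.82 and 1.09, so the bounds hold only for the software's background subtraction.

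Fgf22 is a ligand of the FGF7 group known for its expression in the inner root sheath of the hair follicle. Its brightest probe stood at -3.31 when shaved, then -2.78, -2.54 and -3.02 at 12 h, 1 d and 2 d, -1.73, -1.74 and -2.71 on days 4, 6 and 10, and -3.28 on day 50. The 4 and 6 d arrays lay 0.80 above the next array, and the 50 d array was within 0.02 of the shaved one. The difference from the shaved array was 1.58 at 4 d, or 2.98-fold, and 1.57 at 6 d, or 2.97-fold. The second probe, whose sequence is printed above, differed by 1.21, 1.70 and 1.07 on days 4, 6 and 10, and was not well above background at 50 d. The array lists this probe under the gene's RefSeq transcript and the brightest probe under another cDNA record. Over the 8 arrays both probes correlated at r = 0.83, a description of 8 points that share the RNA and the array. With normexp correction the brightest probe differed by 0.91 at 4 d and 0.84 at 6 d, under the fold needed.

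Fgf7 and Fgf10 are the other ligands of that group and the mesenchymal signals to Fgfr2. Fgf10 stood below the shaved array at all 7 times, and Fgf7 did from 12 h to 4 d and at 50 d. Fgf10 was read on 10 spots of 1 probe, and its level was 0.60 when shaved, then -0.91, -0.19 and 0.31 at 12 h, 1 d and 2 d, -0.74, -0.05 and -0.14 on days 4, 6 and 10, and -0.18 on day 50. The shaved array was the highest of the 8, and 12 h and 4 d were the lowest. The SD over spots was 0.043 to 0.115, against differences from the shaved array of -1.52 at 12 h, -1.34 at 4 d and -0.29 at 2 d, the smallest. Fgf10 was 2.86-fold lower at 12 h and 2.53-fold lower at 4 d, with other times between -0.65 and -0.79. Against the 50 d array in place of the shaved one, the difference was -0.74 at 12 h and -0.56 at 4 d, both short of the fold. Low values on these arrays were not particular to Fgf10. The tested FGF ligands outside the member list had a median difference from the shaved array of -0.46 at 12 h and at 4 d. Over all genes tested it was -0.05 and -0.13.

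Fgf7 stayed within a narrow range. Its level was 1.24 when shaved, then 0.71, 0.64 and 1.08 at 12 h, 1 d and 2 d, 0.79, 1.24 and 1.23 on days 4, 6 and 10, and 0.81 on day 50. The shaved, 6 d and 10 d arrays lay within 0.01 of each other, and no difference reached the fold, the furthest being -0.60 at 1 d.

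Fgf18, the ligand of resting follicle stem cells, was lowest at 4 days. Its level was 1.55 when shaved, then 0.76, 1.30 and 1.13 at 12 h, 1 d and 2 d, 0.41, 1.91 and 1.60 on days 4, 6 and 10, and 1.85 on day 50. It was 2.20-fold below the shaved array at 4 d, a difference of -1.14, and at 12 h the difference was -0.79. Between 4 d and 6 d the order turned, from the lowest of the 8 arrays to the highest. The second probe gave -1.30 at 4 d and correlated with the first at r = 0.998 over 8 arrays, but 26 of the 60 bases are shared, so it is no separate measurement.

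Fgf1 and Fgf2, ligands that leave the cell without a signal peptide, did not reach the fold at any time. Fgf1 was highest at 50 d, at 2.69, lowest at 10 d, at 1.42, and between 1.64 and 2.12 on the other 6 arrays. Its difference at 50 d was 0.94. The second Fgf1 probe did not follow the first, with r = 0.089 over 8 arrays, and its largest difference, 0.86, was at 10 d. Fgf2, read on 10 spots, lay between -3.62 at 12 h and -2.61 at 10 d, with -2.93 on the shaved array and a spot SD of 0.102 to 0.200. The 12 h and 4 d arrays, at -3.62 and -3.57, lay 0.45 below the next array. The second Fgf2 probe lies inside the 47220-base span that the first probe bridges and was well above background on 4 of 8 arrays.

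Fgfr3, the receptor that restrains growth of cartilage and is also made by keratinocytes, differed most among the receptors, but its probes disagreed in size. The brightest probe stood at -0.55 when shaved, then 0.55, 0.99 and 0.50 at 12 h, 1 d and 2 d, 2.94, 1.76 and 0.29 on days 4, 6 and 10, and 0.04 on day 50. All 7 plucked arrays lay above the shaved one, by 11.2-fold at 4 d and 4.97-fold at 6 d, and 2.14-fold, 2.91-fold and 2.07-fold at 12 h, 1 d and 2 d. The second probe, printed above, differed by 0.66 at 4 d, 0.34 at 6 d and at most 0.12 in size at the other times. It ordered the 4 and 6 d arrays first as well, with r = 0.88 to the brightest probe over 8 arrays. The third probe was not well above background on the shaved and 10 d arrays and gave -0.09 at 4 d. With the mean of all 3 probes the difference was 1.35 at 4 d and 1.07 at 6 d, and 0.60, 0.67 and 0.46 at 12 h, 1 d and 2 d, under the fold. Against the 50 d array the brightest probe differed by 0.51, 0.95 and 0.46 at those 3 times, also under the fold, and by 2.90 at 4 d.

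Fgfr1 and Fgfr2, the main receptors of the dermis and of the epithelium, stayed within the fold on their brightest probes. Fgfr1 stood between 4.63 at 50 d and 5.55 at 10 d, with 5.14 on the shaved array. All 3 Fgfr1 probes were highest at 10 d, by 0.41, 0.43 and 0.24 over the shaved array. Fgfr2 stood between -0.77 at 6 d and -0.09 at 4 d on its brightest probe, with -0.63 on the shaved array.

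The second Fgfr2 probe was printed on 10 spots and shares 42 of its 60 bases with the first. It stood at -2.98 when shaved, then -3.02, -2.53 and -2.18 at 12 h, 1 d and 2 d, -1.67, -3.11 and -3.12 on days 4, 6 and 10, and -3.25 on day 50. Both probes were highest at 4 d and lower again at 6 d, but the difference at 4 d was 1.31 on the second probe, past the fold, and 0.55 on the first. The spot SD at 4 d was 0.098.

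The comparison that allows a test set 4, 6 and 10 d, the late window, against 12 h, 1 d and 2 d, the early window, with 3 arrays each, treating the times of a window as its samples. In limma's moderated test with Benjamini-Hochberg adjustment no gene passed the 0.05 threshold among 28776 tested, a background of 0%. 3430 genes had an unadjusted p under 0.05, which is 11.9%, and the lowest adjusted p was 0.104. Fgf5 was not well above background on any early array and passed the filter through the late arrays alone, so its difference, interval and p are not given as a result. Among the other 9 members none had all late arrays above all early ones, which held for 4.73% of all genes, and none had them all below, which held for 13.7%.

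Fgf22 was higher late by 0.72 ± 0.30 (SE), with an interval of 0.01 to 1.44 and a limma adjusted p of 0.415. Fgfr3 was higher late by 0.98 ± 0.62 (SE), with an interval of -0.51 to 2.48 and a limma adjusted p of 0.593. The Fgfr3 difference was 0.35 without the 4 d array, 1.67 without the 10 d array and 0.30 with the mean of its probes. The other 7 members differed by between -0.29, for Fgf1, and 0.28, for Fgf7, with limma adjusted p from 0.598 to 0.974. Intervals for Fgf10 of -0.87 to 0.78, and for Fgf18 of -0.71 to 1.19, reach differences near 2-fold. Early and late arrays lay in different rows of the slide, so window and row cannot be told apart. The shaved array shares its row with the late arrays, and the 50 d array shares its row with the early ones. The part of the row in the members' values was not tested.

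**Figure D3:**
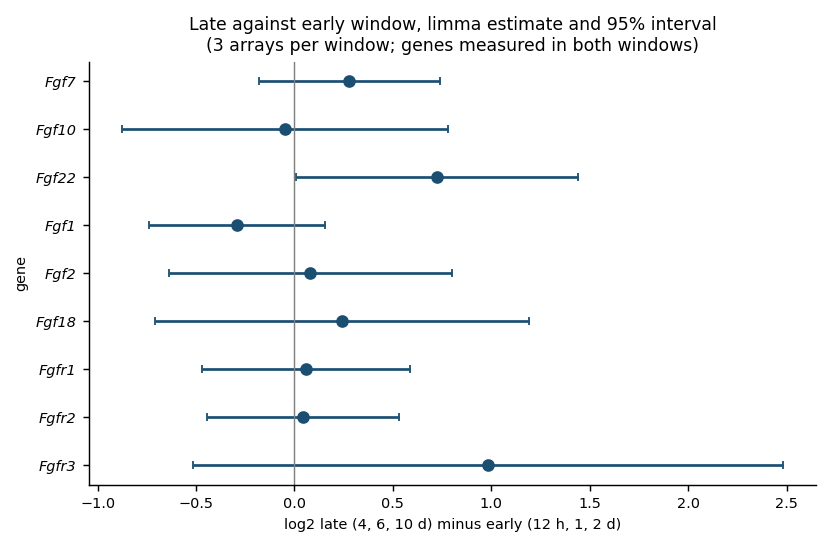
Late minus early difference on the log2 scale (x axis) for 9 genes (y axis), with limma's estimate as the point and its 95% interval as the bar, from 3 arrays in each window. Fgf5 is left out because it was not well above background on any early array; the interval of Fgf22, 0.01 to 1.44, lies just above 0, the other 8 include 0, and no adjusted p was under 0.05.

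Markers of other cells differed at the same times. The summed level of 10 hair shaft and inner root sheath markers was 3.68 on the shaved array, 5.15, 4.25 and 5.73 at 12 h, 1 d and 2 d, 9.51, 9.62 and 8.55 at 4, 6 and 10 d, and 4.54 at 50 d. Krt71, an inner root sheath keratin, had a level of 0.10 on the shaved array, 8.22 at 4 d, 8.00 at 6 d and 7.04 at 10 d. All 10 hair markers were well above background on all arrays. Melanocyte markers, 5 of 5 well above background, summed to 0.84 on the shaved array and to 5.80, 5.36 and 3.33 at 4, 6 and 10 d. These lists stood highest on the arrays where Fgf5 was well above background and where Fgf22 was highest. Of the 9 markers of the bulge, hair germ and outer root sheath, 8 were at least 2-fold above the shaved array at 4 d. The median difference was 3.50, and 5.86% of all genes were higher. At 6 d it was 7 of these markers, with a median of 2.37, beside 4.18% of all genes. Fgfr3 was highest on the 4 and 6 d arrays. The markers summed to 6.81 on the shaved array and to 7.39, 6.95 and 7.22 at 4, 6 and 10 d. Cd34, the brightest of them, differed by -0.52 at 4 d and -0.29 at 6 d. The part of these lists in the Fgf5, Fgf22 and Fgfr3 values was not tested.

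Fgfr3 was also higher at 12 h to 2 d, when the hair markers stood lower than from 4 to 10 d. The 9 interfollicular keratinocyte markers summed to 4.82 on the shaved array, 7.02, 8.10 and 6.82 at 12 h, 1 d and 2 d, 7.22 and 5.90 at 4 and 6 d, 3.60 at 10 d and 4.69 at 50 d. Their part in the Fgfr3 values was not tested. Dermal fibroblast markers ranged from 9.55 to 10.20 and were highest on the shaved array, where Fgf10 was highest. They stood at 9.58 at both 12 h and 2 d, where Fgf10 was -0.91 and 0.31. At 4 d they stood at 9.77, where Fgf10 was -0.74. Of the 10 dermal papilla markers, 7 to 10 were well above background. At 4 d 6 of them were at least 2-fold above the shaved array, beside 5.86% of all genes, with a median difference of 1.64. Their sum, in which bright markers weigh most, ranged from 3.21 at 10 d to 4.06 at 4 d, and Notum, a bright one, stood at 2.78 on the shaved array and 2.71 at 4 d. Macrophage markers were at least 2-fold lower at 4 d in 7 of 7, with a median difference of -1.74, beside 6.58% of all genes. Fgf10 and Fgf18 were low on that array. The macrophage markers were also lower in 3 of 7 at 12 h and at 1 d, beside 3.33% and 3.21% of all genes. They were lower in 5 of 7 at 2 d and at 50 d, beside 3.57% and 4.4%. The medians at 2 d and 50 d were -1.54 and -1.13, while Fgf10 stood at 0.31 at 2 d and Fgf18 at 1.85 at 50 d. Adipocyte markers summed to 10.22 on the shaved array, 9.72 at 4 d and 9.35 at 6 d. The 7 skeletal muscle markers were highest at 50 d, at 11.17 against 10.37 to 10.78 elsewhere, on the array where Fgf1 was highest. The part of these lists in the Fgf10, Fgf18 and Fgf1 values was not tested.

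The 12 h array stood apart in markers of blood cells. All 4 B cell markers were at least 2-fold above the shaved array there, with a median difference of 4.19, beside 3.86% of all genes. So were 4 of 6 T cell markers, with a median of 2.88, and 4 of 7 neutrophil markers, with a median of 3.14. Their part in the 12 h values of Fgfr3 and Fgf10 was not tested. Without the 12 h array the late minus early difference was 0.92 for Fgfr3 and 0.72 for Fgf22.

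**Figure D4:**
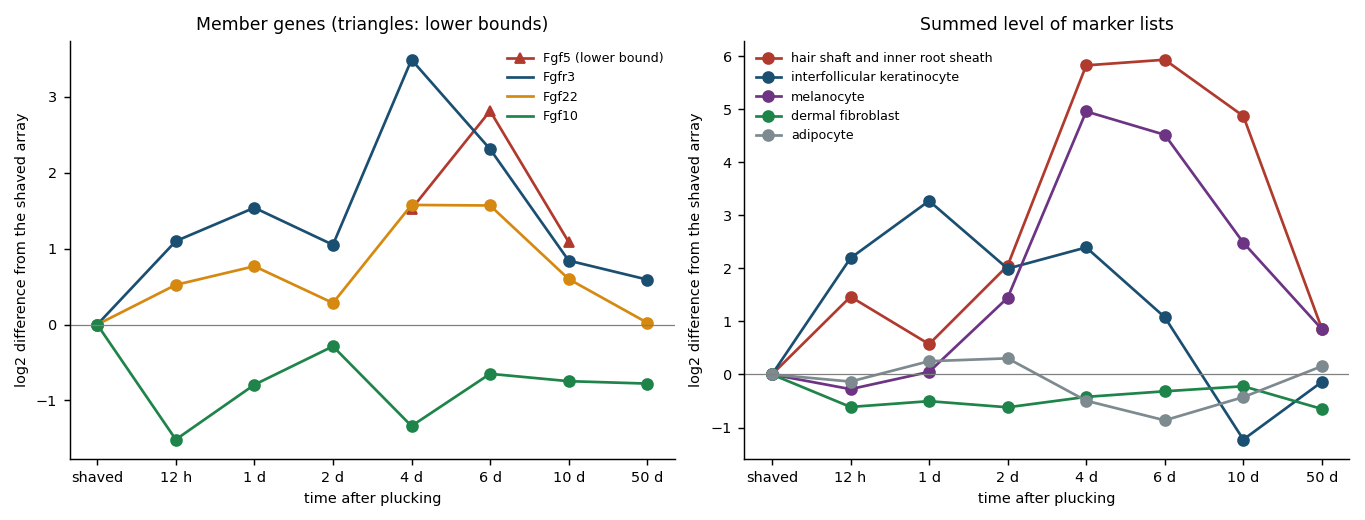
Log2 difference from the shaved array over time (x axis) for the brightest probes of Fgfr3, Fgf22 and Fgf10 and, as lower bounds, Fgf5 on the left, and for the summed level of 5 marker lists on the right, 1 array per time. Triangles are lower bounds, given where Fgf5 was well above background; Fgf5 and the hair shaft list both stood highest at 6 d, Fgfr3 and the melanocyte list at 4 d, and the adipocyte and fibroblast lists stayed within 1 of the shaved array.

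Genes whose level followed each member most closely over the 8 arrays were taken by Pearson r among 5094 genes that were well above background on all arrays and spanned at least 1 on the log2 scale. Members were ranked against them where they spanned at least 1 and were well above background on at least 4 arrays, which left out Fgf5, Fgf7, Fgfr1 and Fgfr2. For Fgf22 they were Tesc, Tmem54 and Celsr1, with r of 0.99, 0.98 and 0.98. For Fgfr3 they were Sqle, an enzyme of sterol synthesis, Kremen2 and Emp2, each with r of 0.99. For Fgf1 they were Bves, a gene of striated muscle, Mtfp1 and Ndufb3, each with r of 0.98 or 0.99.

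For Fgf10 they were Vmn1r219, Gstt1 and Per3, with r of 0.96, 0.94 and 0.93. Per3, a gene of the circadian clock, stood at -1.53 on the shaved array and between -3.50 at 12 h and -2.29 at 2 d on the plucked ones. For Fgf18 they were Tas1r1, Prss32 and Rarb, a retinoic acid receptor, with r of 0.95, 0.92 and 0.92. For Fgf2 they were Olfr774, Hepacam2 and Pcdh11x, with r of 0.98, 0.97 and 0.95. These r values describe 8 points that share array and slide, and they are the highest of many.

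The rest of the pathway was read from 6 lists. Against the shaved array, feedback inhibitors and target genes had 3 of 17 tested members at least 2-fold higher at 4 d and none lower, beside 5.86% and 6.58% of all genes. They were Etv4, an ETS factor induced by FGF signalling, at 2.06, Ccnd1, which encodes cyclin D1, at 1.36, and Dusp6, a phosphatase that turns off ERK, at 1.12. The list's median difference at 4 d was 0.13, beside -0.13 over all genes. Etv4 was 0.34 on the shaved array, 0.22, 0.58 and 0.44 at 12 h, 1 d and 2 d, 2.40, 2.18 and 0.45 at 4, 6 and 10 d, and 0.11 at 50 d. It was thus high at 4 and 6 d and not at 10 d.

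Early on, other target genes passed the fold. At 12 h 1 of 17 was higher and 1 lower, beside 3.86% and 3.33% of all genes. At 1 d 1 of 17 was higher, beside 2.67%. Fosl1, a partner in the AP-1 factor, was higher by 1.96 at 12 h and 1.46 at 1 d. Egr1, an immediate early gene, was lower at 12 h, with a difference of -1.45. It was higher at 50 d, by 1.02, 1 of 17 beside 2.72% of all genes. Among other receptors and co-receptors, Flrt3, a membrane protein that binds FGF receptors, was higher by 2.81 at 4 d and 2.03 at 6 d, 1 of 7 tested members each time, beside 5.86% and 4.18% of all genes. Klb, the co-receptor of endocrine FGFs in fat and liver, was higher by 1.22 at 2 d and 1.26 at 50 d. That was 1 of 7 tested members each time, beside 2.56% and 2.72% of all genes.

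Of 16 heparan sulfate and FGF binding genes, 2 were higher at 4 d, Fgfbp1, a carrier that releases FGFs from the matrix, at 2.36 and Sdc1, a syndecan of epithelium, which stood at 0.30 on the shaved array and 1.80 at 4 d. Sdc3, another syndecan, was lower, at -1.83, so that 2 of 16 were higher and 1 lower, beside 5.86% and 6.58% of all genes. At 12 h Sdc4 was higher, at 1.18, 1 of 16 beside 3.86% of all genes. At 1 d Fgfbp1 stood at -0.81, above its level of -2.31 on the shaved array and past the fold. That was 1 of 16 as well, beside 2.67%. Sdc3 stood at 3.92 on the shaved array and between 1.98 and 3.29 on all 7 plucked ones. It was counted as lower at 12 h, 1 d, 2 d and 50 d too. That was 1 of 16 each time, beside 3.33%, 3.21%, 3.57% and 4.4% of all genes. Among 14 intracellular signalling genes, Hras1 was higher at 4 d, at 1.15, and the other 13 stayed within the fold, beside 5.86% of all genes higher. Of 8 tested other ligands, Fgf21, the fasting hormone, was the 1 counted as higher at 4 d, beside 5.86% of all genes. It was well above background there alone. Both levels, -5.31 and -7.20, lay below the lowest level well above background on the shaved array, -4.90, so no fold is given. Fgf14, an intracellular FGF homologous factor, was lower at 50 d, at -1.02, 1 of 3 tested genes of its list beside 4.4% of all genes. No gene of the 6 lists was counted at 10 d.

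**Figure D5:**
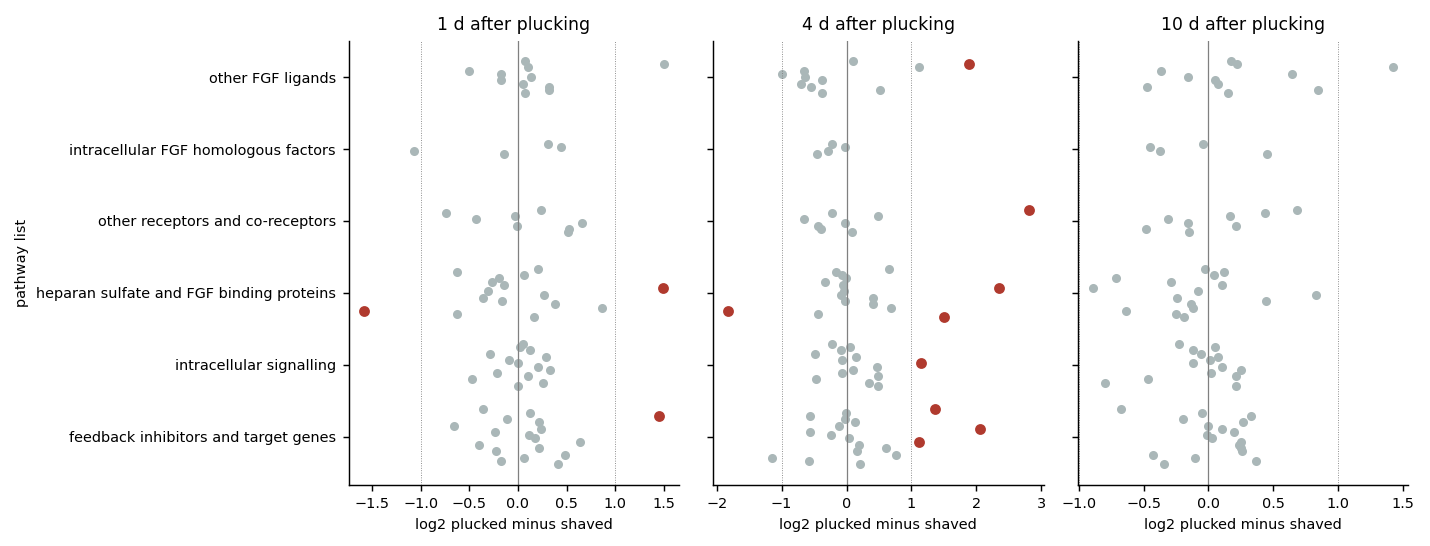
Log2 difference from the shaved array (x axis) of every gene in the 6 pathway lists (y axis) at 1, 4 and 10 d, 1 point per gene, with dotted lines at 2-fold. Red points are genes counted as higher or lower, and grey points beyond a dotted line were not well above background on the brighter array; 8 red points lie to the right and 1 to the left at 4 d, and none is red at 10 d.

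Between the late and early windows no gene of these lists passed limma's adjusted threshold. At an unadjusted p under 0.05 in limma's test, 3 of 17 feedback and target genes were higher and 2 lower. Of 7 other receptors and co-receptors 2 were higher and 3 lower, and 3 of 16 heparan sulfate genes were higher. The share over all 28776 genes was 11.9% with both directions pooled, and 1070 of those 3430 genes were higher. None of 7 other ligands, 3 homologous factors or 14 signalling genes was counted. The largest differences were Flrt3 at 1.70 ± 0.51 (SE), Etv4 at 1.27 ± 0.50 (SE) and Fosl1 at -1.25 ± 0.51 (SE). Klb differed by -0.81, Flrt2 by 0.79, Fgfrl1, a receptor without a kinase domain, by -0.79, and Dusp4 by -0.77. The list medians lay between -0.25 for other receptors and co-receptors and 0.15 for feedback and target genes, beside -0.06 over all genes tested and 0.16 over the 10 members, among which Fgf5 counts only as above the median.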

How the data were processed

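Total RNA was hybridised to 1-colour Agilent arrays, 1 per sample, and the authors deposited the scanner output of Feature Extraction 10.5.1.1, per the file headers. The deposited processed intensity is background-subtracted by that software, and probe positions use mm9, per the file headers. Values were set to log2 after dropping control spots and outlier flags (13 of 55681 probes were lost), spots of a probe were averaged, and each array's 75th percentile was subtracted. The brightest probe over 8 arrays stood for a gene. The window test used limma 3.58.1 in R 4.3.3 (lmFit and eBayes, two-sided, Benjamini-Hochberg over all genes) on genes well above background on at least 3 of 6 arrays, and was tested on simulated data. The members and lists were chosen with earlier results of these data known. Genes outside the members were named by a rule: from each list up to 4 by the size of the late minus early difference, up to 2 markers per cell type, and 3 most alike per member. Egr1, Dusp6, Fgf21, Fgfbp1 and Sdc3 fall outside this rule and were named after their values were seen. On the 10 d array the spike-in slope was outside its range. The number of arrays limits the precision, and p-values measure the spread between times.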

Additional observations from a re-analysis of the deposited data

How the results depend on the processing

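No difference counted at 2-fold turned its direction under quantile normalization, centring on detected probes, normexp correction, the mean of all probes or the 50 d array as reference. Member differences under these alternatives moved by more than the median SD between a gene's probes in 77 cases and by less in 263. Normexp put the median difference of all genes at 6 d at -0.20, against -0.09 in the reported values. Counts of members higher moved as follows. At 12 h the count of 1 became 0 with normexp, the probe mean, the 50 d reference and a 3-fold threshold, and 2 with no filter on background. At 1 d it became 0 with the probe mean, the 50 d reference and 3-fold, and 2 at 1.5-fold. At 2 d it became 0 with normexp, the probe mean, the 50 d reference and 3-fold, and 2 with no filter. At 4 d the count of 3 became 1 with normexp and 2 with both arrays above background and at 3-fold. At 6 d the count of 3 became 2 with normexp, with both arrays above background and at 3-fold. At 10 d it was 0 with normexp and with both arrays above background, and 3 at 1.5-fold. At 50 d it was 2 at 1.5-fold. Counts lower became 3 at 1.5-fold and 0 at 3-fold at 12 h, 2 at 1.5-fold at 1 d, 0 at 3-fold and 3 at 1.5-fold at 4 d, 1 at 1.5-fold at 6 d, 1 with the 50 d reference and at 1.5-fold at 10 d, and 1 at 1.5-fold at 50 d.

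In the window test the count of genes past the threshold was 0 in 12 of 15 alternatives, 45 against all 5 other arrays, and 0 to 245 leaving out 1 array, with 88 without 4 d and 245 without 10 d. No member measured in both windows was past it. Over all alternatives Fgfr3 ranged from 0.30 to 1.92, with adjusted p from 0.140 to 0.871, and Fgf22 from 0.50 to 1.24, with adjusted p from 0.0816 to 0.795. The Fgf5 difference ranged from 1.03, with normexp, to 4.06, and its adjusted p from 0.0273 to 0.516, but its other arrays were not well above background and these values support nothing. Signs turned for members near 0 in 16 cases. Leaving out 1 array gave Fgf10 -0.37 to 0.24 (above 0 without 2 d and, at 0.17, without 4 d), Fgf2 -0.16 to 0.31 (below 0 without 10 d and, at -0.14, without 12 h), Fgf18 -0.058 to 0.69 (below 0 without 6 d), Fgfr1 -0.18 to 0.19 (below 0 without 10 d) and Fgfr2 -0.14 to 0.21 (below 0 without 4 d and, at -0.043, without 12 h). Fgf2 became -0.042 with normexp, -0.10 with the probe mean, -0.16 against shaved and 50 d and -0.014 against all 5 others. Fgf18 became -0.39 against shaved and 50 d and -0.012 against all 5 others. Fgfr2 became -0.019 with normexp and -0.0067 with the probe mean. No paired analysis was possible because every group has replicate number 1 only.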
